A study of Mus musculus with 18 samples.

Results

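The 10 genes followed here belong to the urea cycle and to nitrogen handling in periportal hepatocytes, and were measured in the livers of 8 Young and 10 Old mice. They were chosen by symbol: the mitochondrial and cytosolic cycle enzymes Cps1, Otc, Ass1, Asl and Arg1, the cofactor enzyme Nags, the ornithine carrier Slc25a15, and the amino acid catabolic enzymes Gls2, Sds and Hal. All 10 of 10 were found among the 18946 genes of the deposited table, and all 10 passed the filter on low values. The mice were male C57BL/6J from a commercial colony, aged 6.18 months (Young) or 19.76 months (Old), with no transgene and no drug in either group. All livers come from mice at the close of a euglycemic clamp with raised insulin, a procedure that infuses insulin and glucose together so that blood glucose is held level. The mice had been fasted overnight and carried isotope tracers, so both ages share fasting, insulin, glucose and tracer infusion, and no liver without insulin infusion was analysed here. RNA was depleted of ribosomal RNA and sequenced from whole liver. It was extracted with an AllPrep kit (3 Young, 5 Old) or an RNeasy kit (5 Young, 5 Old). Kit entered the fits over all libraries as a batch, apart from an alternative run without it.

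The urea cycle turns ammonia and the amino group of aspartate into urea, and in mammals its complete form is found in the liver. Periportal hepatocytes, which meet the blood coming from the gut first, hold most of its enzymes together with enzymes that release ammonia from amino acids, while pericentral hepatocytes capture the remaining ammonia as glutamine. Glucagon and glucocorticoids are textbook inducers of the cycle enzymes, and insulin opposes glucagon.

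RefSeq promoter windows of build GRCm38.p6, cut to the 250 bases before each annotated start, matched 5 of the 10 members: Otc, Ass1, Nags, Hal and Slc25a15, the last with a pair of start sites. Both strands were searched for 4 short motifs of hormone-responsive factors: TTGCNNAA for C/EBP factors, TGACGT for CREB, GTAAACA for forkhead factors and AGAACA for the glucocorticoid receptor. Of 32851 windows of the same length, 9.56% held the C/EBP letters, 6.47% the CREB letters, 3.17% the forkhead letters and 16.1% the receptor letters. In the members' 6 windows the searches gave a single match, the C/EBP letters in Hal, 150 to 143 bases before the start. The Hal window is shown because it holds the match, and genes of C/EBP factors are among the regulators described further on, and the Otc window is shown as one with no match from a core cycle enzyme. Hal lies on the + strand at chr10:93488518-93488767 and Otc on the + strand at chrX:10252055-10252304, and capitals mark the match.
Hal: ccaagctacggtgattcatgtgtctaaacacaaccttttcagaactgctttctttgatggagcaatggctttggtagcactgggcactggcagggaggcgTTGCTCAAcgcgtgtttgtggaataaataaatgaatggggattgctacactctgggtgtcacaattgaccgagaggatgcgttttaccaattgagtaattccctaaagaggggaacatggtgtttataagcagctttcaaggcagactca
Otc: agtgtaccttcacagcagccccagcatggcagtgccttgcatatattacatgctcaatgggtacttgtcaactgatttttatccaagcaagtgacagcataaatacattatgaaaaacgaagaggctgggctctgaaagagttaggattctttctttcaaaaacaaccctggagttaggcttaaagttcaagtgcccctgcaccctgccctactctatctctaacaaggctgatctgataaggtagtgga
A match says that the letters are present in the window, and its absence says that these letters are not in this window.

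Levels below are scaled TPM, the deposited length-normalised transcript share (TPM) divided by a composition factor for each library. The recovered read totals ran from 85790735 to 127487820 per library, and the members' own reads from 3677 (the lowest Nags library) to 776333 (the highest Cps1 library). One liver stood apart. Old replicate 14 was the lowest of all 18 libraries for 8 of the 10 members (all but Arg1 and Sds), against 24.3% of the 13895 genes tested. It also had the highest summed level of 7 hepatocyte markers, 169823 scaled TPM against 97145 to 136992 in Young, and the highest level of Cela1, the one pancreatic acinar marker listed, at 101.7 against 10.5 to 14.9 in Young. Its summed B and plasma cell markers were 35.5 against 5.15 to 10.3 in Young, and its summed cholangiocyte markers 87.9 against 26.4 to 65.4. The part of these differences in the members' values was not tested, and the members' age differences are given with and without that liver. In whole liver, fewer periportal hepatocytes and less RNA of a gene per cell cannot be told apart.

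In Old livers the 5 cycle enzymes and the ornithine carrier had lower mean levels, with log2 folds from -0.43 to -0.26. Nags (-0.08, SE 0.06) and Sds (-0.20, SE 0.20) were also lower on average. Gls2 and Hal, which release ammonia from glutamine and histidine, were slightly higher on average (0.06, SE 0.12, and 0.11, SE 0.18). None of the 10 members passed the test of age by limma with Benjamini-Hochberg adjustment over 13895 genes (adjusted p under 0.05), a rule that called 4.91% of all genes, 2.44% (339) higher and 2.47% (343) lower in Old (341 and 188 with no composition factor). At an unadjusted limma p under 0.05 there were 4 of 10 members, Arg1, Slc25a15, Cps1 and Asl, all lower in Old, where 23.4% of all genes passed that rule and 11.6% passed it as lower. The log2 fold of Old over Young was below 0 in 8 of 10 members and in 49.1% of all genes. Its median was -0.28 over the members and 0.0037 over all genes. Without Old replicate 14 no member was called by limma against 7.02% of genes, 2 of 10 had an unadjusted p under 0.05 against 25% of genes, and the median log2 fold was -0.13, with 8 of 10 below 0 (47.5% of genes). Young and Old overlapped in every member, and 0.417% of genes had groups that did not overlap.

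**Figure D1:**
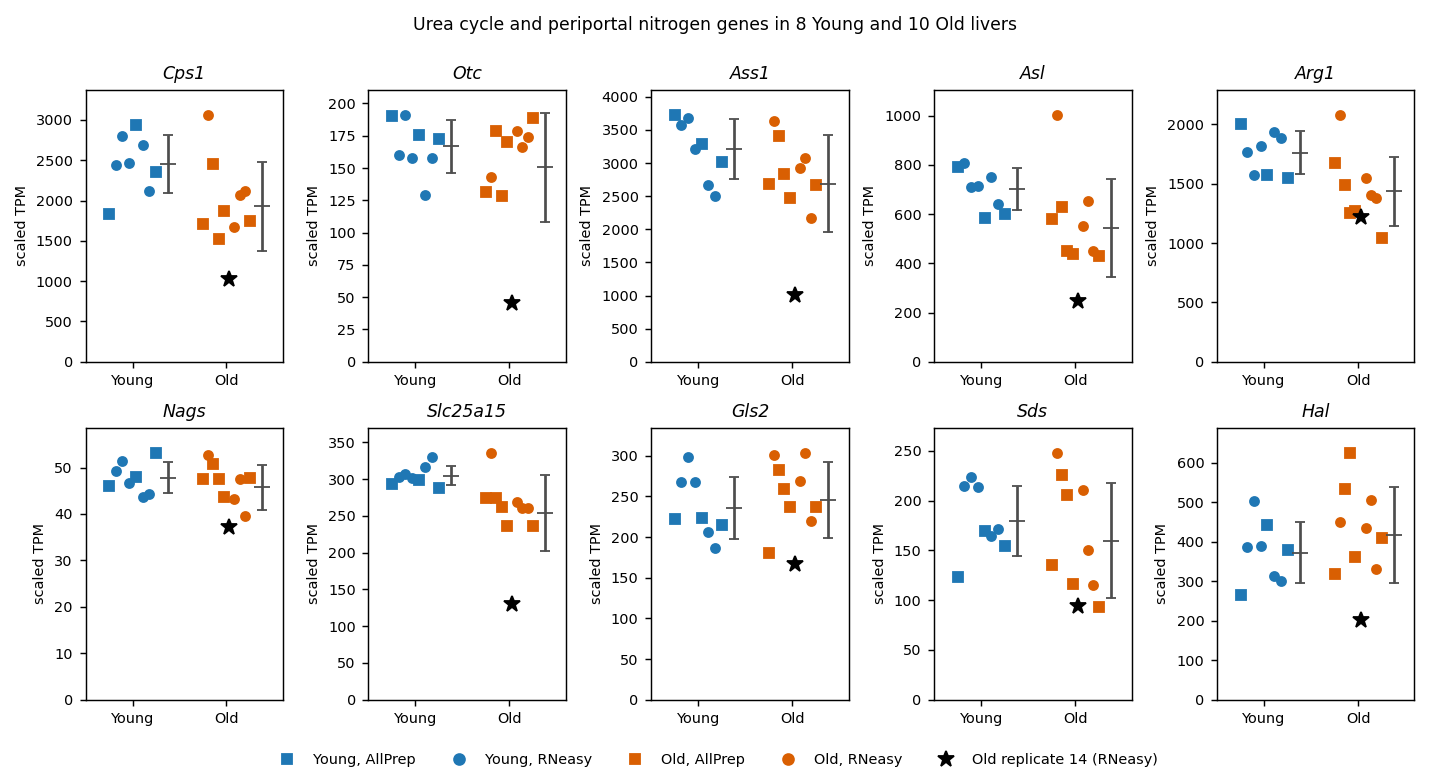
Scaled TPM of each of the 10 members in every library, Young (8) and Old (10), with kit shown by the marker, Old replicate 14 as a star and the mean with its SD as a bar. Young and Old points overlap in all 10 panels, and the star is the lowest point in 8 of them.

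Carbamoyl phosphate synthetase, the entry step of the cycle and its main point of control, is encoded by Cps1. Its level was 1839 at the lowest, 2451 at the median and 2940 at the highest in Young, and 1023, 1809 and 3063 in Old. Among the Old livers 8 of 10 lay below the Young median, but the highest liver of all was also Old (replicate 6). The means were 2456 ± 361 (SD, n = 8) and 1927 ± 552 (SD, n = 10), and the limma log2 fold was -0.38 (SE 0.17, 95% interval -0.73 to -0.03, adjusted p = 0.174). Without Old replicate 14 it was -0.26 (limma adjusted p = 0.213). Nags makes N-acetylglutamate, the activator without which the synthetase is inactive. Its levels were 43.8, 47.3 and 53.2 (lowest, median, highest) in Young and 37.1, 47.5 and 52.7 in Old. The medians nearly coincide, with 4 of 10 Old livers below the Young median. The limma log2 fold was -0.08 (SE 0.06, interval -0.21 to 0.06, adjusted p = 0.483), and -0.05 without Old replicate 14.

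Otc joins carbamoyl phosphate to ornithine inside the mitochondrion, and Slc25a15 carries ornithine in and citrulline out. Otc ran from 129 through a median of 166 to 191 in Young and from 45.3 through 168 to 189 in Old. Old replicate 14 held the low value, and the other Old livers lay between 128.5 and 189, across the Young range. The limma log2 fold of Otc was -0.26 (SE 0.21, interval -0.69 to 0.18, adjusted p = 0.477) with that liver and -0.05 without it. Slc25a15 had the tightest Young values of the 10 genes, 289, 302 and 330, with a coefficient of variation of 4.29%. In Old it ran from 131 through 262 to 336, with a coefficient of variation of 20.2%, or 10.8% without replicate 14. Of the Old livers, 9 of 10 lay below the Young median. The limma log2 fold was -0.30 (SE 0.13, interval -0.56 to -0.03, adjusted p = 0.166). Without replicate 14 it was smaller, at -0.17, with a smaller limma p of 0.00807 (adjusted p = 0.0774).

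The cytosolic steps were led in level by Ass1, which condenses citrulline with aspartate. Ass1 ran from 2499 through 3249 to 3728 in Young and from 1002 through 2763 to 3641 in Old, with 8 of 10 Old livers below the Young median. The limma log2 fold was -0.33 (SE 0.19, interval -0.74 to 0.07, adjusted p = 0.306), and -0.16 without Old replicate 14. Asl, which splits the product into arginine and fumarate, had the log2 fold farthest below 0 of the 10. It ran from 584 through 713 to 809 in Young and from 247 through 502 to 1004 in Old. Below the Young median lay 9 of 10 Old livers, while Old replicate 6 lay above every Young liver. The means were 701 ± 85.0 (SD, n = 8) and 543 ± 201 (SD, n = 10), a limma log2 fold of -0.43 (SE 0.19, interval -0.83 to -0.03, adjusted p = 0.178), and -0.28 without Old replicate 14 (adjusted p = 0.212).

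Arg1 releases urea from arginine and returns ornithine to the cycle. It ran from 1548 through 1792 to 2000 in Young and from 1045 through 1391 to 2081 in Old. The Old livers lay below the Young median in 9 of 10 cases, and the exception, Old replicate 6, was the highest of all 18. The means were 1763 ± 178 (SD, n = 8) and 1437 ± 289 (SD, n = 10), and the limma log2 fold was -0.30 (SE 0.11, interval -0.53 to -0.06, adjusted p = 0.122). Arg1 depended little on Old replicate 14 (log2 fold -0.26 without it, limma adjusted p = 0.146). It passed the limma threshold when Old replicate 6 was left out (log2 fold -0.36, adjusted p = 0.0417), the only single library whose removal brought any member past it.

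The 3 catabolic enzymes behaved less uniformly. Gls2 encodes the liver glutaminase, which frees ammonia from glutamine in periportal mitochondria. It ran from 187 through 223 to 299 in Young and from 167 through 248 to 304 in Old, with 3 of 10 Old livers below the Young median, and its limma log2 fold was 0.06 (SE 0.12, interval -0.20 to 0.32, adjusted p = 0.813), and 0.14 without Old replicate 14. Hal opens histidine breakdown by removing its amino group as ammonia. It ran from 267 through 384 to 503 in Young and from 201 through 423 to 625 in Old, and the ranges are wide in both ages. Its limma log2 fold was 0.11 (SE 0.18, interval -0.27 to 0.50, adjusted p = 0.741), and 0.24 without Old replicate 14 (adjusted p = 0.335). Sds, the serine dehydratase that yields pyruvate and ammonia, ran from 123 through 170 to 224 in Young and from 93.5 through 143 to 248 in Old. The Young median lay above 6 of 10 Old livers, with a limma log2 fold of -0.20 (SE 0.20, interval -0.61 to 0.21, adjusted p = 0.554), and -0.10 without Old replicate 14. The intervals of Gls2, Hal and Sds include 0 and overlap those of the cycle enzymes, and no test of members against each other was made.

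**Figure D2:**
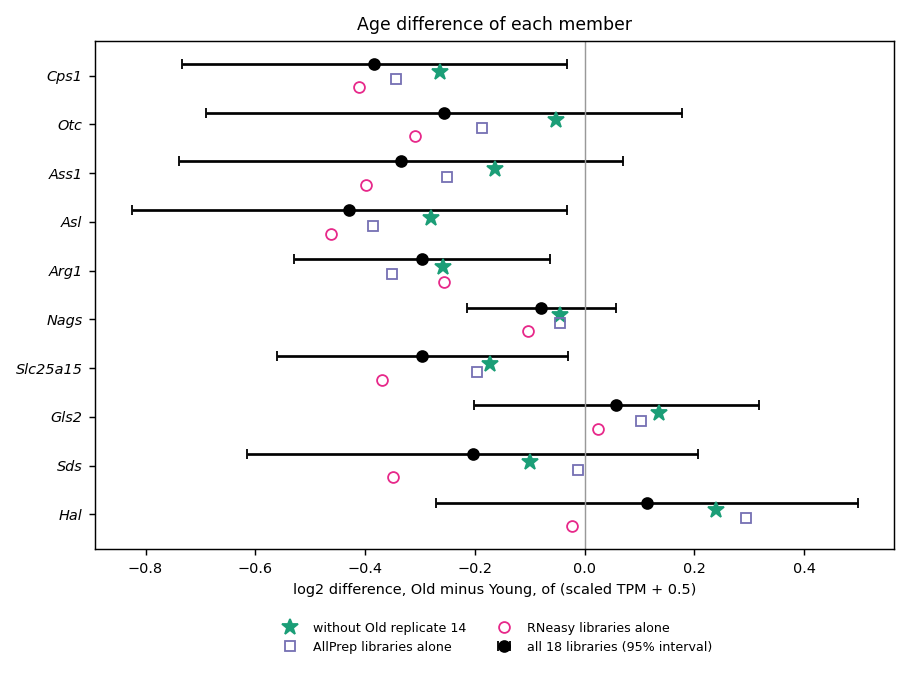
Log2 fold of Old over Young for each member from limma, with its 95% interval in all 18 libraries (kit as a term), and as points without Old replicate 14 and within each kit. The intervals of Arg1, Slc25a15, Cps1 and Asl from all 18 libraries lie below 0, and without Old replicate 14 the estimates of Otc and Ass1 move from -0.26 to -0.05 and from -0.33 to -0.16.

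Within AllPrep the limma log2 fold of Old over Young was below 0 in 8 of 10 members (47.1% of all genes). Within RNeasy it was below 0 in 9 of 10 (50.2%), and in 7 of 10 without Old replicate 14 (48.5%). The 4 members with an unadjusted p under 0.05 over all libraries were lower in Old within each kit. They were picked from a fit over the same libraries, so their direction within kits is not separate evidence of a difference. Arg1 was -0.35 within AllPrep and -0.26 within RNeasy, Cps1 -0.34 and -0.41, Asl -0.39 and -0.46, and Slc25a15 -0.20 and -0.37 (limma log2 folds). Sds was near 0 within AllPrep (-0.01) and -0.35 within RNeasy, and Hal was 0.29 and -0.02. Old replicate 14 is an RNeasy library, and without it the RNeasy log2 folds were -0.18 for Arg1, -0.19 for Cps1, -0.19 for Asl, -0.15 for Slc25a15, -0.17 for Sds and 0.19 for Hal. No member passed within AllPrep, where 1.1% of genes did, or within RNeasy, where 0.101% did. No member had a kit-by-age interaction by limma (lowest adjusted p = 0.975), nor did any of the 13895 genes, of which 587 had an unadjusted p under 0.05. Without Old replicate 14 the interaction was called in 3 genes, none of them a member. Between kits themselves, limma called 18.3% of genes and no member (lowest adjusted p = 0.376).

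Per transcript length, which TPM takes into account, the members spanned a wide range of levels that was ordered alike in most livers. Over the 18 libraries the mean scaled TPM was 2919 for Ass1, 2162 for Cps1, 1582 for Arg1 and 613 for Asl. Below these came Hal at 398, Slc25a15 at 277, Gls2 at 241, Sds at 168, Otc at 158 and Nags at 46.7. Ass1 exceeded Cps1 in 16 of 18 libraries, Cps1 exceeded Arg1 in 16, and Arg1 exceeded Asl in all 18. Asl exceeded Hal in 17, Hal exceeded Slc25a15 in 15, and Slc25a15 exceeded Gls2 in 15. Sds and Otc could not be ordered, since Sds was the higher in only 11 of 18. Gls2 exceeded Sds, and Otc exceeded Nags, in all 18. The 10 genes together made up 0.932% ± 0.104 (SD, n = 8) of all TPM in Young and 0.794% ± 0.173 (SD, n = 10) in Old. The Old mean includes replicate 14 at 0.452%, while the other Old livers ran from 0.703% to 1.11%.

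Old livers were spread more widely than Young livers in each of the 10 members. The coefficient of variation of Asl was 12.1% in Young and 36.9% in Old, and that of Sds 19.5% and 36.2%. For Asl and Sds the spread stayed at 31.5% and 33.7% without Old replicate 14. For Otc it was 12.2% in Young and 28.2% in Old, and 13.6% in Old without replicate 14. For Gls2 the Old value went from 19.1% to 15.8% without that liver, under the Young value of 16.1%. The Old extremes were mostly the same animals: replicate 6 was the highest of all 18 for Cps1, Asl, Arg1, Slc25a15 and Sds, and replicate 14 or 18 the lowest for all 10. These differences in spread were not tested, and the share of all genes with a wider spread in Old was not counted.

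Livers that were high in one member tended to be high in the others. After age and kit were removed from the log2 values, 44 of the 45 pairs of members had a positive correlation over the 18 libraries, with a median Pearson r of 0.64. Permutation tests with adjustment over the 45 pairs gave an adjusted p under 0.05 for 36 pairs by Pearson's r and for 20 by both Pearson's r and Spearman's rho. Without Old replicate 14, 41 pairs were positive and the median r was 0.47. All members come from the same libraries and share the scaling, so the pairs are not independent of each other. The share of positive pairs among all tested genes was not counted, so these counts do not set the members apart from other genes.

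The closest pair was Ass1 and Asl, the successive cytosolic enzymes, with r = 0.90 (permutation p = 4e-05, adjusted 0.00045) and rho = 0.76 (permutation p = 0.00041, adjusted 0.00369). Without the 2 libraries farthest from the median of Ass1, Old replicates 6 and 14, r was 0.68. Ass1 and Gls2 had r = 0.85 (permutation p = 1e-05, the smallest that the permutations can give, adjusted 0.00045) and rho = 0.84 (permutation p = 3e-05, adjusted 0.0009), and r stayed at 0.81 without the same libraries. Gls2 and Hal, both ammonia-releasing enzymes, had r = 0.86 (permutation p = 3e-05, adjusted 0.00045) and rho = 0.85 (permutation p = 4e-05, adjusted 0.0009), and r = 0.75 without Old replicates 5 and 14. These 3 relations held without the farthest libraries.

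Some other pairs rested on a few livers. Otc and Slc25a15, the mitochondrial ornithine steps, had r = 0.78 (permutation p = 0.0189, adjusted 0.0258) but rho = 0.31 (permutation p = 0.215, adjusted 0.285), and r was 0.04 without Old replicates 14 and 15. That relation rests on those livers. Cps1 and Slc25a15 went the same way, from r = 0.77 (permutation p = 0.00156, adjusted 0.00422; rho = 0.31, p = 0.213, adjusted 0.285) to 0.09 without Old replicates 6 and 14. Arg1 went with Asl (r = 0.76, permutation p = 0.0004, adjusted 0.00189; rho = 0.76, p = 0.00041, adjusted 0.00369; r = 0.64 without Old replicates 6 and 14). Arg1 and Hal had the lowest correlation of the 45 pairs (r = -0.02, permutation p = 0.944, adjusted 0.944; rho = -0.09, p = 0.727, adjusted 0.761; r = -0.01 without Old replicates 5 and 6). Otc had a median r with the other members of 0.62 over all 18 libraries and of 0.10 without Old replicate 14.

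**Figure D3:**
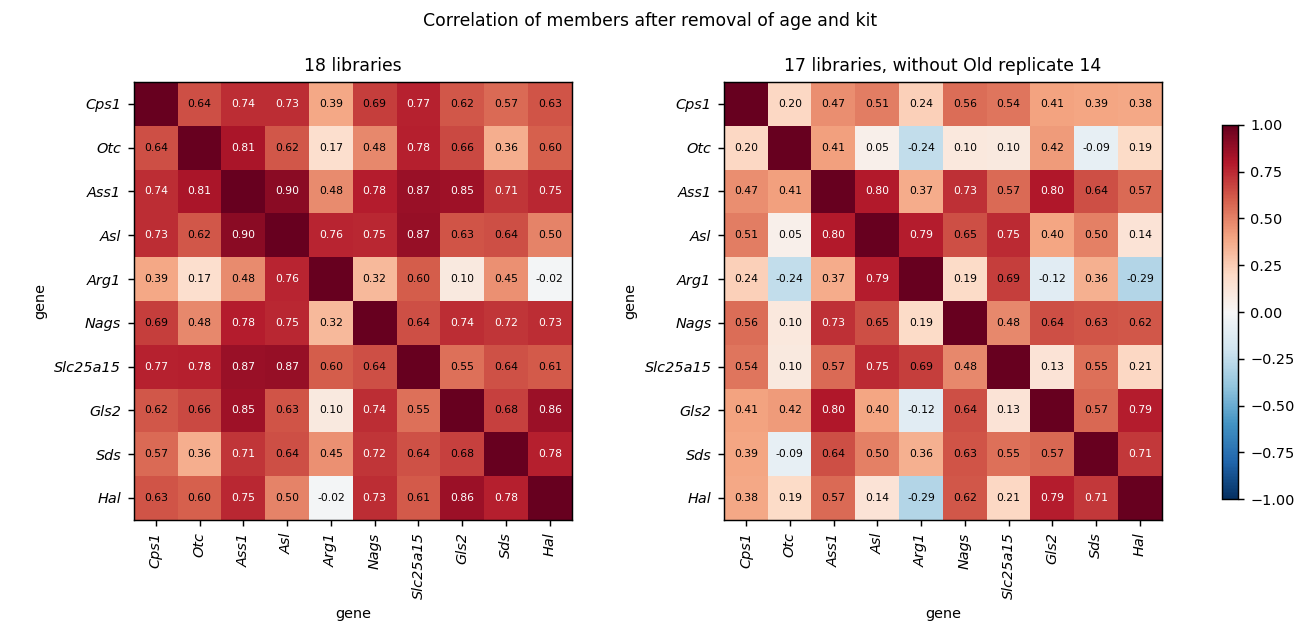
Pearson r between members across libraries after removal of age and kit, for all 18 libraries (left) and without Old replicate 14 (right), coloured from -1 to 1. Ass1 and Asl stay at 0.80 without that liver, while the row of Otc loses most of its colour.

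Among the 6165 genes tested with a mean of at least 10 TPM, those whose pattern across the 18 libraries was most like Cps1 after removal of age and kit were Slc38a4, Farp2, Slc7a2, Nrbp2 and Ap3b1. Slc38a4 carries small neutral amino acids and had r = 0.91 with Cps1 (0.87 without Old replicate 14), and Slc7a2, a carrier of arginine, lysine and ornithine, had r = 0.87 (0.79). Farp2 had r = 0.90 (0.88, above Slc38a4 without that liver), Nrbp2 0.87 (0.76) and Ap3b1 0.87 (0.81). For Sds they were Ggt6, Adssl1, Slc38a3, Gorasp1 and Aqp11. Slc38a3, a carrier of glutamine and histidine, had r = 0.83 with Sds (0.78 without that liver), and Ggt6 the highest r of 0.85 (0.81). These values are descriptions over libraries that share depth and scaling.

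The clamp gave a measure of insulin action in each mouse, the suppression of the liver's glucose production, which ran from 68.4% to 92% in Young and from 25.4% to 68.4% in Old. The question asked of the members was whether, within an age and kit, livers with stronger suppression had lower levels. By limma, no member and none of the 13895 genes had a slope past the adjusted threshold (0% called, against 9.12% at an unadjusted p under 0.05). Slopes were below 0 in 9 of 10 members (52.8% of genes), and 3 of 10 had an unadjusted limma p under 0.05. Hal differed by -0.18 log2 units for each 10 percentage points of suppression (SE 0.07, limma p = 0.0155, adjusted 0.545). Gls2 differed by -0.11 (SE 0.05, limma p = 0.0283, adjusted 0.545) and Cps1 by -0.14 (SE 0.06, limma p = 0.0472, adjusted 0.545). Arg1 had the single positive slope, 0.03 (SE 0.05). Old replicate 14 weighed on these values: without it 6 of 10 slopes were below 0, Hal was at -0.13 (limma p = 0.0448, adjusted 0.713), Gls2 at -0.08 (p = 0.081) and Cps1 at -0.09 (p = 0.132). Against hepatic citrate synthase flux, a labelled measure of mitochondrial oxidation, no member passed even an unadjusted limma p of 0.05, which 3.2% of genes did. The slopes were below 0 in 8 of 10 members (54.9% of genes; 5 of 10 without Old replicate 14), and the lowest adjusted p of a member was 0.925.

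**Figure D4:**
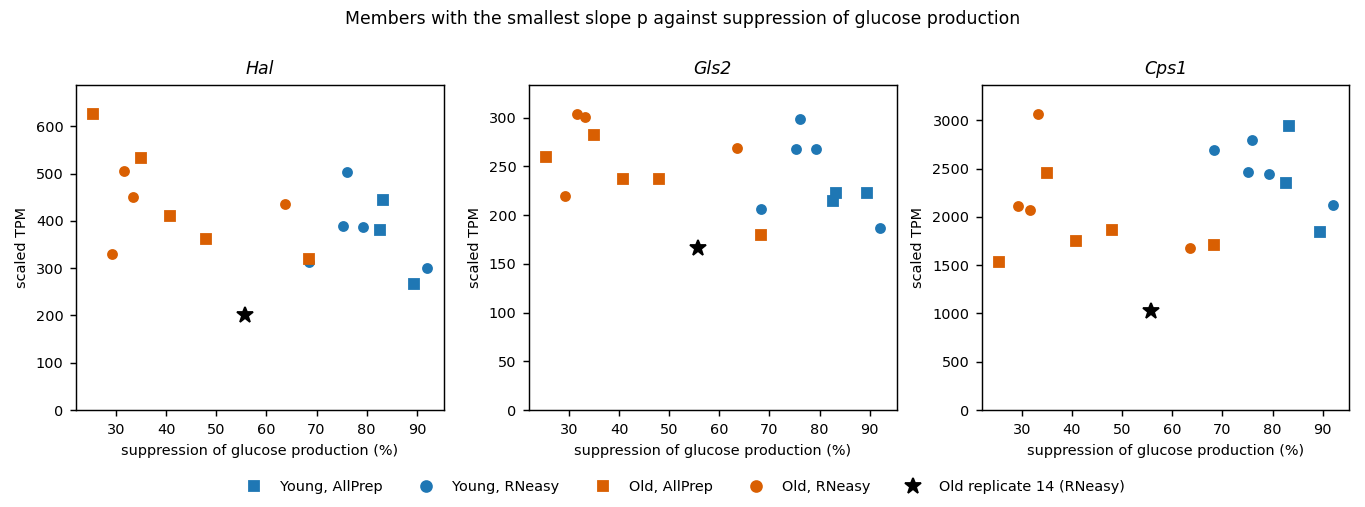
Scaled TPM of Hal, Gls2 and Cps1 against the suppression of glucose production in percent, one point per mouse, coloured by age, with kit shown by the marker and Old replicate 14 as a star. Old mice run from 25.4% to 68.4% and Young mice from 68.4% to 92%, and the highest Hal value, 625, belongs to the Old mouse with the weakest suppression.

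The genes around the cycle were taken as lists. Over all genes tested, limma called 2.47% lower and 2.44% higher, and 49.1% had a log2 fold below 0. Among transporters and enzymes that supply it, 20 of 22 were tested, and limma called 3 lower and none higher in Old, with a median log2 fold of -0.07 (-0.04 without Old replicate 14). Slc38a2, which brings small neutral amino acids into the cell, had a mean of 131.9 ± 23.2 (SD, n = 8) in Young and 75.0 ± 22.1 (SD, n = 10) in Old, with all 10 Old livers below the Young median (limma log2 fold -0.80, SE 0.13, adjusted p = 0.00321). Slc7a2, the cationic amino acid carrier that followed Cps1 across livers, had 294.8 ± 59.2 and 186.9 ± 43.3, again with 10 of 10 Old livers below the Young median (limma log2 fold -0.64, SE 0.15, adjusted p = 0.0205, and 0.053 without Young replicate 10). Got1, the cytosolic aspartate aminotransferase, had 259.0 ± 20.7 and 163.4 ± 74.9, with 9 of 10 below (limma log2 fold -0.78, SE 0.21, adjusted p = 0.0393). Without Old replicate 14 the count stayed at 3 (466 of all 13895 genes were called lower in that fit). The call of Got1 was lost with any of 13 libraries left out (limma adjusted p from 0.0546 to 0.0824), and within kits only Slc38a2 passed, in AllPrep (adjusted p = 0.0191). Other carriers of the list, such as Slc38a4, which had the pattern most like Cps1 (log2 fold -0.19, limma adjusted p = 0.367), did not pass.

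Regulators linked to glucagon, glucocorticoids and fasting formed a list chosen with earlier results of these data known. Limma called 4 of 20 lower and none higher in Old (2.47% and 2.44% of all genes), with a median log2 fold of -0.16. There were also 4 lower without Old replicate 14 (466 of all 13895 genes in that fit), with a median of -0.09. Cebpb, a C/EBP factor induced by both hormones, ran from 86.2 to 121.9 in Young and from 33.8 to 85.9 in Old, so the groups did not overlap (limma log2 fold -0.90, SE 0.15, adjusted p = 0.00375). Cebpd, a related factor, had a log2 fold of -0.76 (limma adjusted p = 0.00498), and Per1, a clock gene that glucocorticoids induce, of -1.23 (adjusted p = 0.00557). Gcgr, the glucagon receptor, had a mean of 111.3 ± 15.5 (SD, n = 8) in Young and 92.5 ± 16.9 (SD, n = 10) in Old (limma log2 fold -0.22, SE 0.06, adjusted p = 0.0397). The call of Gcgr was lost with any of 14 libraries left out (limma adjusted p from 0.0514 to 0.0912), and none of the 4 passed within a kit. Hal, whose promoter window holds the C/EBP letters shown above, had means of 373 in Young and 417 in Old (limma adjusted p = 0.741). Those letters occur in 9.56% of all windows, and a link between C/EBP factors and Hal was not tested.

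Zonation lists gave the setting of the members within the liver lobule. Of 18 periportal markers other than the members, limma called 1 higher and 1 lower (2.44% and 2.47% of all genes), with a median log2 fold of -0.15, or -0.01 without Old replicate 14. Pck1, which makes phosphoenolpyruvate for gluconeogenesis, ran from 4523 to 6658 in Young and from 1039 to 4188 in Old with no overlap (limma log2 fold -0.99, SE 0.21, adjusted p = 0.0137). Aldh1b1, a mitochondrial aldehyde dehydrogenase, was the one called higher (limma log2 fold 1.37, adjusted p = 0.0398). Of 20 pericentral markers limma called 1 lower, Notum, an antagonist of Wnt signals (log2 fold -0.48, adjusted p = 0.0386), and none higher, with 17 of 20 below 0 (49.1% of all genes) and a median of -0.46, or -0.33 without Old replicate 14. Lower average levels were thus also counted among pericentral markers. Glul, the pericentral enzyme that makes glutamine from ammonia, had 932 ± 127 (SD, n = 8) in Young and 743 ± 225 (SD, n = 10) in Old, and did not pass (limma log2 fold -0.44, adjusted p = 0.16, and -0.28 without Old replicate 14). The calls of Aldh1b1 and Notum were each lost with any of 12 libraries left out. Without Old replicate 14 the calls became 2 higher and 3 lower among the periportal and 4 lower among the pericentral markers. Calls over all 13895 genes also rose without that liver, from 339 higher and 343 lower to 510 higher and 466 lower.

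**Figure D5:**
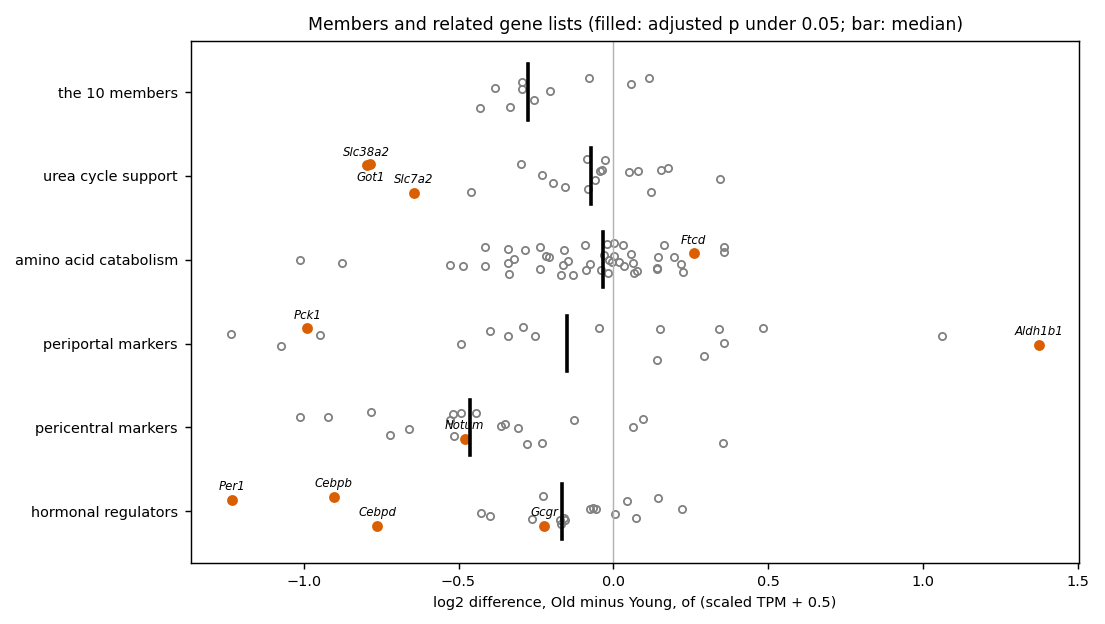
Log2 fold of Old over Young for every tested gene of the members and of the 5 lists, one point per gene, with genes called by limma filled and named and the median of each list as a line. The members sit at a median of -0.28 with no filled point, and the pericentral markers at -0.46.

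Markers of the cell types in liver were checked in the same libraries. Hepatocyte markers gave no call (0 of 7), as did Kupffer cell (0 of 7), sinusoidal endothelial (0 of 6), stellate (0 of 6), cholangiocyte (0 of 4) and T and NK cell markers (0 of 4). Limma called 4.91% of all genes, so lists this short cannot show whether cell composition differed. Median log2 folds were -0.001 for hepatocyte, 0.22 for Kupffer cell, -0.08 for endothelial and 0.20 for stellate markers. They were -0.19 for cholangiocyte, 0.20 for T and NK cell and 0.50 for B and plasma cell markers. Of 6 B and plasma cell markers limma called 1 higher in Old, Jchain (1.71 ± 1.01 scaled TPM, SD, n = 8, and 6.04 ± 5.72, SD, n = 10). Enterocytes also express Cps1 and Otc. Of 6 enterocyte markers 2 were in the table: Vil1 was below 1 TPM in every library, while the sum with the other, Fabp2, ran from 192 to 263 in Young and from 160 to 294 in Old. The part of enterocyte RNA in the members' values was not tested. Summed Kupffer cell markers ran from 141 to 299 in Young and from 138 to 419 in Old.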

How the data were processed

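Liver RNA of 8 Young and 10 Old mice, each a separate animal per the labels, was read from the deposited table of TPM, which the authors computed for 18946 genes. The submitters' processing notes name STAR 2.7.9a, Subread, featureCounts and the builds GRCm39 and mm10, without roles. Whole reads could be recovered for all 18946 genes (to within 0.001 of a whole read), giving 85790735 to 127487820 reads per library. They are recovered up to a factor shared by all libraries of a gene, so genes whose counts share a divisor are understated. TPM was scaled by a trimmed-mean factor (30% of log ratios and 5% of levels trimmed), 13895 genes reaching 0.5 TPM in 8 or more libraries were kept, and log2(scaled TPM + 0.5) was fitted with limma 3.58.1 in R 4.3.3, with a variance trend and terms for age and kit. Fold changes are on that scale, and p-values were adjusted by Benjamini-Hochberg over all 13895 genes at 0.05. Slopes on clamp traits had age, kit and the trait as terms. Correlations used residuals from age and kit and 100000 two-sided permutations (scipy 1.17.1). The scripts were tested on simulated data.

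The members and lists were chosen with earlier results of these data known. The text names all 10 members, the called genes of each list (at most 6) and the 5 genes most like Cps1 and Sds; Glul, Jchain and the genes in the observations were chosen after their values were seen. Alternatives were other scalings, filters, pseudocounts, terms and weights, limma-voom on recovered reads, a fold threshold of 1.2, each kit alone and each library left out; 1 was added after seeing the data.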

Additional observations from a re-analysis of the deposited data

Results flagged for a closer look

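In 2 of the 20 groups examined (10 members in each age), 1 library lay so far from the rest that the gap was large for the group's range; chance alone gives such a gap in about 1 group in 20. Both are Old replicate 14. Its Otc level was 45.3 scaled TPM, where the next lowest Old liver had 128.5, a gap of 0.58 of the whole Old range. Its Slc25a15 level was 130.8, where the next lowest Old liver had 236.9, a gap of 0.517 of the range. Both genes serve the mitochondrial ornithine step, and the cause was not tested.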

How the results depend on the processing

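The count of members called lower in Old was 0 under every alternative but one: over libraries left out in turn it ran from 0 to 1, with Arg1 called without Old replicate 6. The count called higher, and the counts with a kit-by-age interaction or a slope on a clamp trait, were 0 under each alternative run. Supply genes called lower numbered 3, but 1 within AllPrep and 0 within RNeasy, with body weight as a further term, against a fold of 1.2, or within RNeasy without Old replicate 14. With library weights they numbered 4, and with libraries left out they ran from 1 (without Young replicate 10) to 4. Regulators called lower numbered 4, but 0 within AllPrep, within RNeasy, with body weight or against a fold of 1.2, and 1 within RNeasy without Old replicate 14. They numbered 6 with library weights, 5 with limma-voom, and 3 with no kit term or no composition factor. With libraries left out they ran from 3 to 4. The log2 fold changed sign for Otc within RNeasy without Old replicate 14 (0.063), for Gls2 with body weight (-0.16) and for Hal within RNeasy (-0.022) and with body weight (-0.36). The cause was not tested. Old mice were heavier, so body weight and age are hard to separate in this design: with that term 3 genes were called in all. With library weights 704 genes were called higher and 697 lower, and still no member (lowest limma adjusted p = 0.0905). Of 32 alternatives, calls were lost in 18 for Got1, 21 for Gcgr, 19 for Ftcd, 17 for Aldh1b1 and 18 for Notum, 12 to 14 of them for each gene on leaving out 1 library; for Got1 these were all 8 Young livers and Old replicates 8, 9, 15, 17 and 18, and for Gcgr 7 Young livers (all but replicate 3) and Old replicates 7, 8, 9, 15, 16, 17 and 18. No paired analysis was possible because no replicate number occurs in both ages. With 8 and 10 livers the 95% interval of Asl ran from -0.83 to -0.03 in log2 units, so that a small and a large difference could not be separated.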

Other observations

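Histidine breakdown continues from Hal through Uroc1, Amdhd1 and Ftcd, and these genes, apart from Ftcd, were singled out after their values were seen. Uroc1, the urocanase, had 277 ± 54.9 scaled TPM (SD, n = 8) in Young and 357 ± 64.6 (SD, n = 10) in Old, with 8 of 10 Old livers above the Young median (limma log2 fold 0.36, adjusted p = 0.112). Amdhd1, the next enzyme, had 113 ± 20.3 and 144 ± 24.3, again with 8 of 10 above (limma log2 fold 0.36, adjusted p = 0.0822, and 0.0315 without Old replicate 14). Ftcd, which passes the last fragment to folate, had 155.6 ± 26.1 and 179.7 ± 31.2, and was the only one of 48 amino acid catabolic genes called higher (limma log2 fold 0.26, adjusted p = 0.042, 0.322 without the kit term, and lost with any of 12 libraries left out). None of the 48 was called lower, and their median log2 fold was -0.03. Of those lower in Old, Tat came nearest, at 1253 ± 232 in Young and 722 ± 257 in Old. All 10 Old livers lay below its Young median (limma log2 fold -0.88, adjusted p = 0.0575, and 0.00263 without Old replicate 14). Its limma adjusted p was 0.0378 within AllPrep and 0.541 within RNeasy. Over all genes limma called 2.44% higher and 2.47% lower. At an unadjusted limma p under 0.05, 7 of the 48 were higher and 7 lower in Old. Without Old replicate 14 limma called 3 of them higher and 2 lower, and the median turned to 0.02. In that fit 510 of all 13895 genes were called higher and 466 lower. Oat, the pericentral enzyme that removes ornithine, had 1702 ± 181 in Young and 992 ± 443 in Old, with 10 of 10 Old livers below the Young median. Its limma log2 fold was -1.01 (adjusted p = 0.1), and -0.66 without Old replicate 14 (adjusted p = 0.0217), where its level was 135.7.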
